A study of Mus musculus with 2 samples.

Results

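Alveolar type 2 (AT2) cells that carried little Lcn2 and Il33 RNA were examined in single-cell RNA sequencing of mouse lung. They numbered 1707 of 15453 cells, 815 in a library labelled control and 892 in a library labelled fibrosis. A cell was counted when at most 10% of its unique molecular identifiers (UMIs, one per captured RNA molecule) were mitochondrial, when it held at least 4 UMIs summed over Lamp3, Slc34a2, Abca3 and Etv5, and when it held no UMI of Ptprc (CD45, leukocytes) or Pecam1 (endothelium). It also had fewer than 3 of the ciliated genes Foxj1, Ccdc153, Tmem212 and Dynlrb2, under 2% of its UMIs on the club cell gene Scgb1a1, and under 0.2% on Lcn2 plus Il33. The AT2 cells at or above that last limit are called the high side here and the counted cells the low side. Each library came from 1 male C57Bl/6J mouse aged 3 months, killed 14 days after 100 µg of particles were placed in the trachea. The study used titanium dioxide and crocidolite asbestos, a fibre that scars the lung, and the labels do not tie either particle to a mouse, so the libraries keep their names, control and fibrosis. Both mice were exposed to a particle, and no untreated lung was analysed here.

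AT2 cells make, store and recycle pulmonary surfactant, the film of lipid and protein that keeps alveoli open, and they serve as progenitors of the thin AT1 cells that carry gas exchange. After injury they are known to switch on acute-phase and defence genes. Lcn2, lipocalin 2, binds bacterial iron carriers, and Il33 is a cytokine released by damaged epithelium. The 0.2% limit keeps AT2 cells with little RNA of both genes, and it was set with these data in view.

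The deposited tables held 36632591 UMIs in 8280 control cells and 38090308 in 7173 fibrosis cells. The counted cells held between 1468 and 19606 UMIs each, with medians of 5603 (control) and 5032 (fibrosis). The libraries shared 89 barcodes, which 9 control and 4 fibrosis members carried. With 1 mouse per library no difference below has a replicate check and none was tested. All intervals are exact 95% intervals that cover counting error only. Levels are summed UMIs scaled to a total of 1000000 (CPM), and ratios are log2 of fibrosis over control with 0.5 UMI added to each sum. A gene is said to be higher or lower only where its CPM ratio passed 1.5-fold among 6763 features with at least 100 UMIs. Shares of cells and CPM cannot tell fewer AT2 cells in the lung from fewer AT2 cells released by digestion.

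The members carried the AT2 markers. Sftpc, which encodes surfactant protein C and took no part in the rule, reached 198666 CPM in the control members and 161759 CPM in the fibrosis members. In the lung cells outside the AT2 rule it stood at 9363 and 18714 CPM. Every member held Sftpc UMIs, but so did 97.4% of control and 99.4% of fibrosis B cells (cells with at least 3 UMIs of Cd79a, Cd79b and Ms4a1 and none of Lamp3, Slc34a2, Abca3, Etv5 or the T cell genes Cd3d, Cd3e and Cd3g), at 1742.5 and 1619.0 CPM, so the level and not the presence of Sftpc sets the members apart. This B cell gate set no limit on genes of cell types other than AT2 and T cells. Its summed levels, here and below, can therefore include RNA of such cells. Leaving aside mitochondrial and ribosomal protein genes, Sftpc was the most abundant gene over both libraries, followed by the nuclear RNA Malat1, the lysozyme Lyz2 and the surfactant protein gene Sftpa1. Sftpb, the phosphate carrier Slc34a2, the stearoyl-CoA desaturase Scd1, the lung chemokine Cxcl15, the lipid transfer protein Npc2 and Sftpd were also among the first 15. Slc34a2 was detected in 100% of the members of both libraries, and the transcription factor Etv5 in 84.8% of the control and 83.9% of the fibrosis members. These last 2 genes are part of the rule.

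The low side was 10.2% of the 8026 control cells within the mitochondrial limit (9.50 to 10.8%) and 12.8% of 6945 such fibrosis cells (12.1 to 13.7%). The order of the libraries rested on the limits. With Lcn2 plus Il33 held under 0.1% the shares were 7.0% and 6.64%, in the opposite order, and with the same floor of 1915 UMIs for every cell they were 12.3% and 12.8%. All AT2 cells together were 11.3% of the control (10.6 to 12.0%) and 21.3% of the fibrosis library (20.3 to 22.3%). The low side made up 89.9% of the 907 control AT2 cells (87.7 to 91.7%) and 60.3% of the 1479 fibrosis AT2 cells (57.8 to 62.8%), a share that the rule itself reads out.

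**Figure D1:**
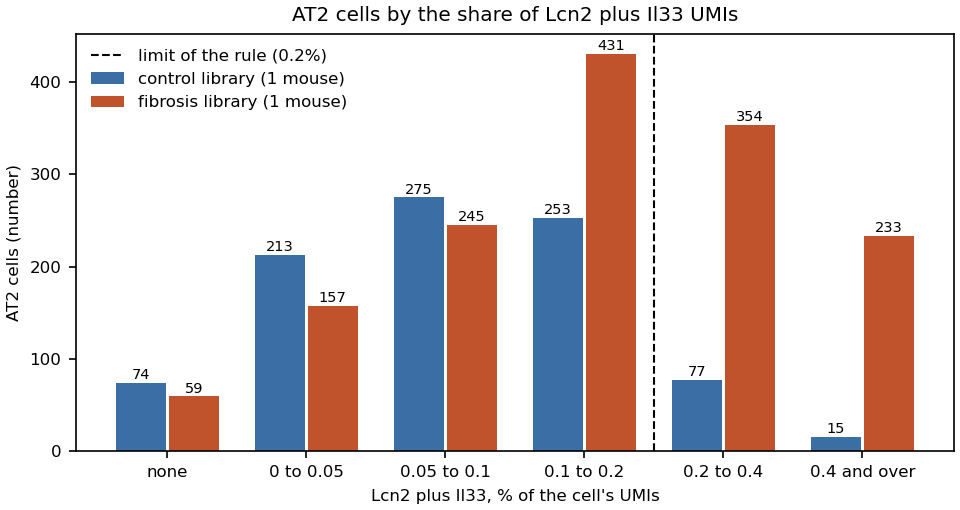
Number of AT2 cells in each library by the share of their UMIs on Lcn2 plus Il33, in percent. The dashed line is the 0.2% limit of the rule. The low side is left of it, with 815 control and 892 fibrosis cells, and the fullest class holds 275 control cells at 0.05 to 0.1% and 431 fibrosis cells at 0.1 to 0.2%.

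Within the low side the fibrosis members lay nearer to the limit. The median share of Lcn2 plus Il33 was 0.070% (control) and 0.096% (fibrosis). Neither gene had a UMI in 74 control members (9.08%) and 59 fibrosis members (6.61%). Just inside the limit, from 0.15 to 0.2%, stood 86 control and 208 fibrosis cells, and just outside it, from 0.2 to 0.25%, stood 33 and 119. Lcn2 itself was at 539 and 740 CPM in the members, and Il33 at 248 and 266 CPM. Both values belong to the rule.

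The members were not uniform in Sftpc. In both libraries the per-cell share of Sftpc split into a low and a high range with few cells between them. A line at 18% of UMIs, chosen after the distribution had been seen, put 388 of 815 control members (47.6%, 44.1 to 51.1%) and 295 of 892 fibrosis members (33.1%, 30.0 to 36.3%) in the upper range. The median Sftpc share was 26.8% in the upper and 11.7% in the lower range of the control library, and 26.3% and 8.80% in the fibrosis library. Between 16 and 20% lay 76 control and 32 fibrosis cells. The high side showed the same pair of ranges, with 57 of 92 control cells (62.0%) and 293 of 587 fibrosis cells (49.9%) in the upper one. These ranges divide a continuous measure and are not cell types.

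**Figure D2:**
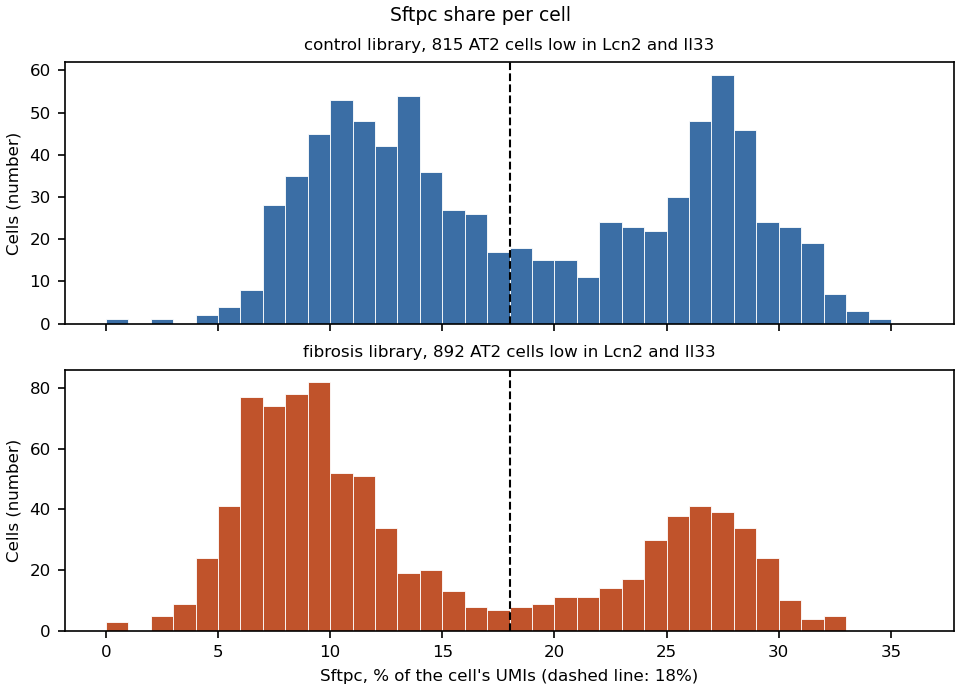
Histograms of the share of Sftpc among each member's UMIs, in percent, by library, with the number of cells on the vertical axis. The dashed line marks 18%. Of the control cells 388 of 815 lie above it and of the fibrosis cells 295 of 892, and the lower range is centred lower in the fibrosis library.

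Sftpc-rich members held more UMIs, and a smaller share of them was mitochondrial. Their median total was 7106 UMIs against 4918 in the control and 7047 against 4519 in the fibrosis library. Without Sftpc the totals were still 5134 against 4315 and 5121 against 4094. The median mitochondrial share was 4.64% against 6.49% in the control, and 4.18% against 6.08% in the fibrosis library, of totals that include Sftpc. The part of depth and RNA quality in the 2 ranges was not tested. Thinned to 2000 UMIs without Sftpc, the ranges gave 904 against 925 detected genes in the control and 905 against 929 in the fibrosis library.

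With Sftpc left out of the totals, 163 of 4183 genes (3.90%) were past 1.5-fold higher in the Sftpc-rich range of both libraries and 51 (1.22%) past 1.5-fold lower. Of the surfactant list, leaving aside Sftpc and the genes of the rule, 5 of 8 genes were higher in both libraries, and of the injury and acute-phase list 4 of 7. Napsa, the aspartic protease that matures surfactant proteins B and C, differed most of those 5, by 1.66 (control) and 1.72 (fibrosis) on the log2 scale. Sftpb differed by 0.87 and 0.96, Sftpd by 0.87 and 0.89, and Sftpa1 by 0.67 and 0.87. Of the class II antigen presentation genes, H2-Aa differed by 0.78 and 0.83 and the invariant chain gene Cd74 by 0.73 and 0.83, 2 of the 4 of 10 listed genes past the threshold in both libraries. The paraoxonase Pon1 (1.73 and 2.07), the acidic chitinase Chia1 (1.91 and 1.44), the isoprenoid enzyme Fdps (1.27 and 1.45) and the glutathione transferase Gsta4 (1.3 and 1.40) were also higher in the Sftpc-rich range. Lower there were the immediate early gene Ier3 (-1.08 and -1.01), the AT1 gene Clic5 (-0.84 and -0.90; the other 4 AT1 genes were not past the threshold in both libraries, and the list medians were 0.19 and 0.17), the metalloproteinase inhibitor Timp3 (-0.90 and -0.78), and the leukocyte genes Srgn (-1.65 and -1.0) and Fcer1g (-0.87 and -0.90).

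Over all members the log2 ratio of Sftpc was -0.30, short of 1.5-fold. With Sftpc left out of the totals it was -0.01 within the Sftpc-rich range and -0.43 within the Sftpc-poor range. The line between the ranges is drawn on Sftpc itself and limits how far cells on one side of it can differ, so nothing is read from these values. Lyz2 gave -0.36 over all members, -0.22 within the rich range and -0.41 within the poor range.

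Between the libraries, 230 of the 6763 features (3.4%) were past 1.5-fold higher in the fibrosis members and 85 (1.26%) past 1.5-fold lower, and the median log2 ratio of all features was 0.08. Higher features thus made 73.0% of the calls, but 55.6% with the ratios centred on their median, 58.8% with Sftpc left out of the totals, 54.2% with the median of the other cell gates subtracted, 42.9% within the Sftpc-rich range and 58.0% within the Sftpc-poor range. The same ratio was taken in B, T, endothelial, ciliated and alveolar macrophage gates of the same libraries. Of 167 higher features with a value in at least 3 of those gates, 53 (31.7%) were also past 1.5-fold in the gates' median, and of 61 lower features 25 (41.0%) were. Of all 5629 features with that many gates, the median was past 1.5-fold higher for 4.30% and lower for 1.74%.

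**Figure D3:**
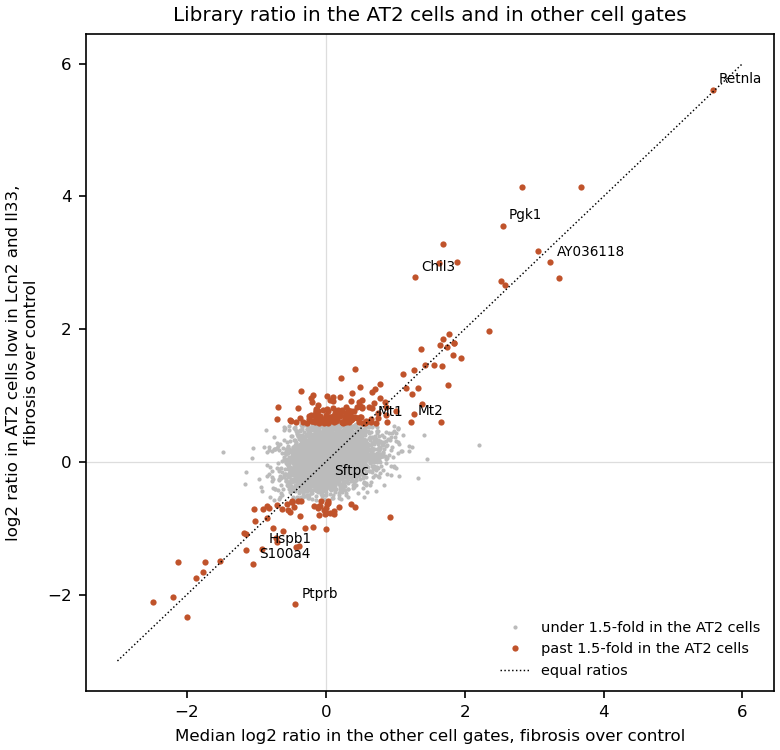
Log2 ratio of CPM, fibrosis over control, in the low-side AT2 cells (vertical) against the median of the same ratio in the other cell gates (horizontal), 1 point per feature with a value in at least 3 gates. Orange points are past 1.5-fold in the AT2 cells. Retnla and AY036118 lie near the dotted line of equal ratios, while Chil3 and Pgk1 lie above it and Ptprb below it.

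Many of the most extreme features moved alike in all gates. The ribosomal RNA-derived transcript AY036118 gave a log2 ratio of 3.01 beside 3.23 in the other gates. Among the lowest, Gm10263 gave -2.03 beside -2.20, Wdr89 -1.75 beside -1.86 and Rps27rt -1.66 beside -1.77. Several of these have near-identical copies in the genome, and the part of read assignment in their ratios was not tested. A single cell held 78.0% of the fibrosis UMIs of the antibody joining chain gene Jchain (log2 4.86) and 53.4% of those of the histone gene Hist1h2ap (4.15). For Hist1h2ap that was 70 of 131 UMIs, beside 7 in all control members, and the other gates gave 2.83.

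Pon1 was lower in the fibrosis members. This secreted lipid-metabolising esterase (chromosome 6, 5168090 to 5193946, minus strand, GRCm38) had 493 UMIs in the control members and 152 in the fibrosis members, or 100.5 and 31.3 CPM, a log2 ratio of -1.68 (-1.95 to -1.42). No other gate held enough UMIs for a ratio. B cells stood at 3.39 and 0 CPM, and the small ciliated gate, with 11 and 2 UMIs, at 59.3 and 13.6 CPM. The ratio was -1.39 within the Sftpc-rich and -1.73 within the Sftpc-poor range, and -1.56 on the high side. Under the other settings tried it stayed between -1.78 and -1.39. Pgk1, a glycolytic kinase, had 10 and 122 UMIs, a log2 ratio of 3.56 (2.70 to 4.72) beside 2.54 in the other gates, and it has processed copies. Ptprb, an endothelial phosphatase, was at 20.4 and 4.54 CPM, a ratio of -2.14 (-2.91 to -1.49) beside -0.44 in the other gates. B cells, which are not known to express Ptprb, held 41.2 and 42.4 CPM of it, more than the members. Other gates did fall: T cells held 32.9 and 14.5 CPM (-1.16) and alveolar macrophages 30.4 and 15.8 CPM (-0.93). Endothelial cells rose, from 835 to 1262 CPM (0.60). Chil3, a chitinase-like gene of alveolar macrophages, was at 56.1 and 387 CPM (log2 2.78, 2.60 to 2.97; other gates 1.28). That median spans gates that differ widely. T cells gave 2.88 (123 and 911 CPM), as large as in the members, ciliated cells 2.07, alveolar macrophages 1.23 and endothelial cells -1.06. At 1500 UMIs per cell Chil3 was seen in 7.62% of control and 31.1% of fibrosis members, under the 18.4% and 37.1% of B cells. The part of RNA from other cells in these shares was not tested.

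**Figure D4:**
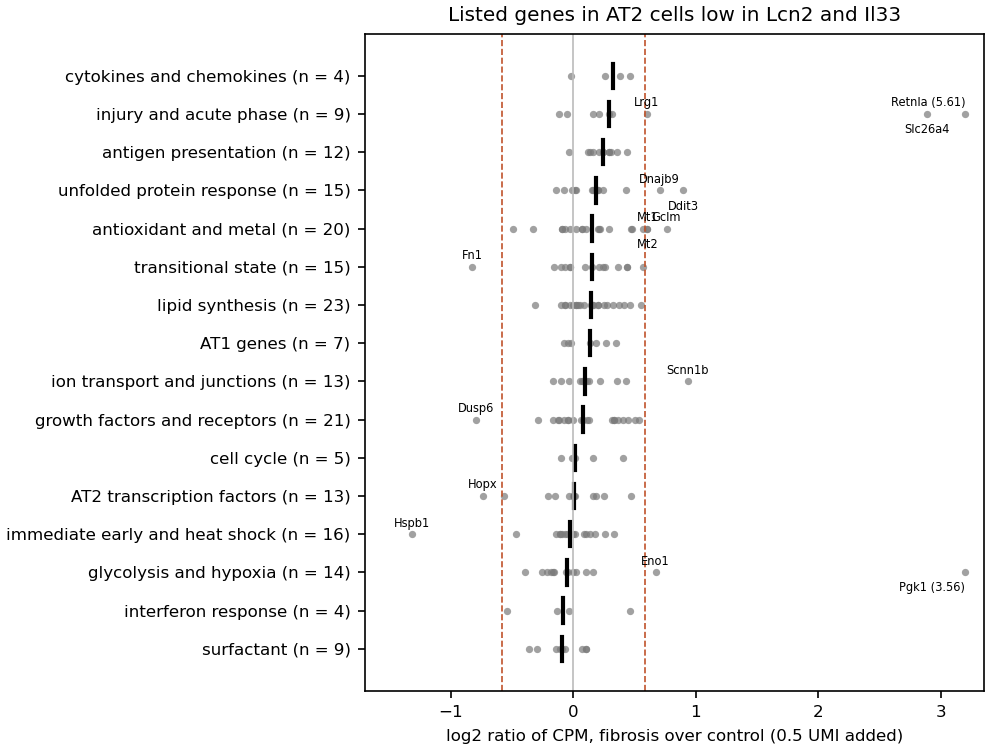
Log2 ratio of CPM, fibrosis over control, for the listed genes in the members, with 0.5 UMI added. Each point is a gene with at least 100 UMIs that is not part of the rule, black bars are list medians, dashed lines mark 1.5-fold, and genes past it are named. Values above 3.2 are drawn at the edge with the value printed. The list medians lie between -0.09 and 0.32.

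Of the 16 gene lists, all written with earlier results of these data known, most had no or few genes past 1.5-fold, beside the 3.4% and 1.26% of all features. The surfactant list had 0 of 9 genes past the threshold in either direction and a median of -0.09. Sftpa1 gave -0.09, Sftpb -0.14, Sftpd 0.07, Napsa -0.07 and the lipid-remodelling enzyme Lpcat1 0.11. The lipid synthesis list had 0 of 23 past it and a median of 0.14, beside 0.51 in the other gates. Scd1 stood at 5460 and 7258 CPM (log2 0.41, 0.39 to 0.43; other gates 1.11), and Acsl4, which activates arachidonic acid, at 259 and 381 CPM (0.56, 0.45 to 0.66; other gates 0.51). Fasn, the fatty acid synthase, gave 0.16.

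Of 13 AT2 transcription factors, 1 was past the threshold. The lineage factor Nkx2-1 stood at 362 and 365 CPM, Cebpa at 216 and 211 and Foxa2 at 73.6 and 83.5. Hopx, a homeodomain protein best known from AT1 cells, was lower, with 137 and 81 UMIs (log2 -0.74, -1.16 to -0.34). That call was lost with Lcn2 plus Il33 under 0.1% (-0.22), without barcodes found in both libraries (-0.33), with each cell weighted equally (-0.52), at 3000 UMIs per cell (-0.16) and within the Sftpc-rich range (-0.13). A single cell held 35 of the 137 control UMIs of Hopx (25.5%), and another 15 of the 81 fibrosis UMIs (18.5%).

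In the growth factor list 1 of 21 genes was past the threshold. It was Dusp6, the phosphatase that follows and limits ERK signalling, with 151 and 86 UMIs, or 30.8 and 17.7 CPM (log2 -0.79, -1.20 to -0.40). The other gates gave 0.12, the high side -1.51, and every setting tried kept it between -1.37 and -0.61. B cells, which express Dusp6 too, were at 39.2 and 42.4 CPM. The FGF receptor Fgfr2 gave -0.04, the feedback inhibitors Spry1 0.11 and Spry2 0.00, the receptor Met -0.07, and the Wnt target Axin2 0.12. Ccnd2, a D-type cyclin outside the lists that also marked the low side, was lower too, with 423 and 254 UMIs (-0.72, -0.95 to -0.49; other gates -0.03).

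The injury and acute-phase list had the most genes past the threshold for its size, 3 of 9 in the higher direction, with a median of 0.29. It was drawn from the same response as Lcn2, whose level the rule holds down, so its count is not independent of the rule. Slc26a4, which encodes the anion exchanger pendrin of airway epithelium (chromosome 12, 31519827 to 31559969, minus strand, GRCm38), had 35 UMIs in the control members and 259 in the fibrosis members. That is 7.14 and 53.4 CPM, a log2 ratio of 2.89 (2.39 to 3.46). At 1500 UMIs per cell, with 1 control member too shallow, it was seen in 1.11% of control members (0.507 to 2.09%) and 6.28% of fibrosis members (4.78 to 8.08%), and unthinned in 3.93% and 14.9%. B cells, at median depths of 1957 and 2619.5 UMIs, showed it in 0 of 789 control and 0 of 350 fibrosis cells, which allows shares of up to 0.380% and 0.857%. The ratio lay between 2.31 and 2.92 under the 14 other settings that gave a value, with the lowest in the Sftpc-rich and the highest in the Sftpc-poor range. Subtraction of the other gates gave none, since too few of them held enough UMIs. On the high side it was 3.49.

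Split by Lcn2 plus Il33, Slc26a4 rested on few UMIs in each class. Among cells with neither gene it had 2 control and 7 fibrosis UMIs, 5.97 and 25.6 CPM, with overlapping intervals (0.723 to 21.6 and 10.3 to 52.7 CPM). At up to 0.05% it had 4 and 31 UMIs (3.08 and 36.7 CPM), from 0.05 to 0.1% 17 and 78 (10.0 and 59.5 CPM), and from 0.1 to 0.2% 12 and 143 (7.60 and 59.1 CPM). The intervals of these last 3 classes did not overlap. On the high side it reached 120 and 181 CPM in the fibrosis classes, and the control ones, at 9.43 and 23.7 CPM, held 5 and 3 UMIs. For Lrg1, a secreted acute-phase glycoprotein, the libraries lay closer: in cells with neither gene it stood at 41.8 and 47.5 CPM, and at up to 0.05% at 126 and 131 CPM. From 0.05 to 0.1% it was 220 and 313 CPM, and from 0.1 to 0.2% 406 and 517 CPM. The classes are cut on genes of the rule, and Lrg1 rose with their share in both libraries. Grouping by that share can by itself bring the libraries closer for Lrg1, so nothing is read from the closeness. Over all members Lrg1 had 1191 and 1783 UMIs (log2 0.60, 0.49 to 0.71; other gates 0.02). This call sat on the threshold, and 6 of the 15 other settings put it just under, as low as 0.41 with Lcn2 plus Il33 under 0.1%. Chil1, another chitinase-like protein, was at 2047 and 2369 CPM (0.21), and complement C3 at 68.7 and 83.9 CPM (0.29).

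**Figure D5:**
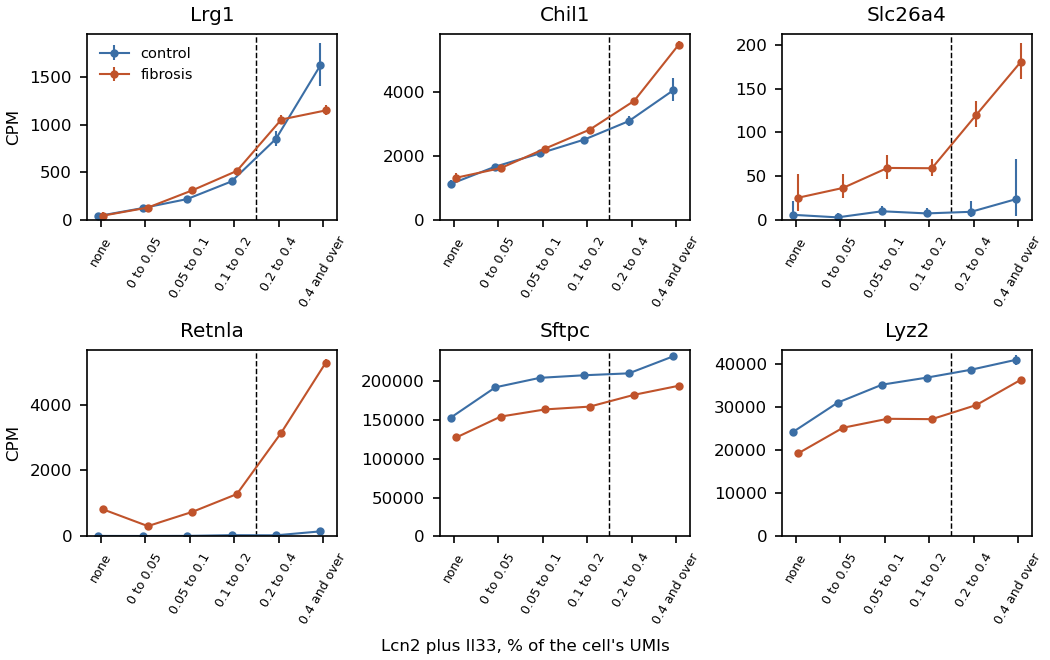
CPM of 6 genes in AT2 cells grouped by the share of Lcn2 plus Il33 among their UMIs, in percent, by library. Bars are exact 95% intervals of counting error, and the dashed line is the 0.2% limit. In the low side Slc26a4 lies between 25.6 and 59.5 CPM in the fibrosis library and between 3.08 and 10.0 CPM in the control. Lrg1 starts at 41.8 and 47.5 CPM in the 2 libraries. The classes are cut on genes of the rule, which can by itself bring the libraries closer for genes that rise with them.

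Retnla, a secreted resistin-like protein known from type 2 immunity (chromosome 16, 48842551 to 48844461, plus strand, GRCm38), had the highest ratio of all features. It had 94 UMIs in the control members and 4558 in the fibrosis members, 19.2 and 940 CPM, a log2 ratio of 5.61 (5.32 to 5.93). The other gates gave a median of 5.57, and subtracting it left 0.04. At 1500 UMIs per cell Retnla was seen in 1.97% of control and 25.1% of fibrosis members, and in 0.507% and 24.6% of B cells. The share of fibrosis members was thus close to that of B cells, and the part of RNA from other cells was not tested. The level was not evenly spread: fibrosis B cells held 235 CPM, and at 3000 UMIs per cell 10% of the fibrosis members carried 85.8% of the UMIs, with 16% of all of them in 1 cell. In the fibrosis library the level was 310 CPM at up to 0.05% of Lcn2 plus Il33, 742 from 0.05 to 0.1%, 1282 from 0.1 to 0.2%, and 3147 and 5273 CPM in the classes of the high side. Cells with neither gene held 814 CPM. The cell with 16% of the UMIs held 727 of them. The fibrosis classes of the low side held 223 (neither gene), 262, 973 and 3100 UMIs, so that cell lies between 0.05 and 0.2%. Its class was not determined, so no trend is read from the 742 and 1282 CPM. The classes are also cut on genes of the rule.

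Retnla and Slc26a4 were the listed genes with the 2 of the 3 highest ratios, so the 250 bases before their RefSeq start are given (GRCm38.p6, 5′ to 3′ on the gene's strand, chr16:48842359-48842608, plus, and chr12:31559985-31560234, minus). Capitals mark the STAT6-type motif TTCNNNNGAA, which reads the same on both strands.
Retnla: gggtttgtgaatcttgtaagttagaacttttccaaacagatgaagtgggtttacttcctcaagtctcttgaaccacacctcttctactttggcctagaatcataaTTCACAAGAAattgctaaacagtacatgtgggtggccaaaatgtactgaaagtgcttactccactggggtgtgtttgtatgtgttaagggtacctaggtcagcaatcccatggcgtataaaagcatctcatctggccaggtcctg
Slc26a4: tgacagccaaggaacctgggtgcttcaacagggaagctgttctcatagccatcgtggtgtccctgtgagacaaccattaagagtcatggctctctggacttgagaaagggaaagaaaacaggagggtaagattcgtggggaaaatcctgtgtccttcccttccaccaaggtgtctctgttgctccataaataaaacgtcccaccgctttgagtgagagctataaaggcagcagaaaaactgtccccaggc
The Retnla window held 1 match and the Slc26a4 window 0, and 5.85% of 32851 RefSeq windows of this length held the motif. The NF-kB-type motif GGGNNTTTCC (1.41% of windows) and the C/EBP-type motif TTGNGCAA (2.61%), searched on both strands, occurred in neither.

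The transitional-state list, genes of AT2 cells on the way to AT1 cells, had 1 of 15 genes past the threshold, Fn1, in the lower direction. Fn1, fibronectin, had 74 and 41 UMIs (-0.83, -1.42 to -0.27), stood under the 58.1 and 97.6 CPM of B cells, and gave 0.079 once cells with 3 or more UMIs of leukocyte, endothelial or mesenchymal genes were left out, -0.30 with each cell weighted equally and -0.23 in the Sftpc-rich range. The keratins Krt8 and Krt18 were at 127 and 122 CPM and at 118 and 152 CPM, the stress inhibitor Cdkn1a at 49.1 and 52.6 CPM, and Clu, clusterin, at 102 and 151 CPM (0.57, 0.41 to 0.74; other gates -0.12). Sprr1a, a cornification gene chosen after its values were seen, had 48 UMIs in the Sftpc-poor control members and 0 in the Sftpc-rich, and 194 and 3 in the fibrosis members. At 1500 UMIs per cell it was seen in 0.369% of control and 1.01% of fibrosis members, beside 0 (at most 0.380%) and 0.286% of B cells. None of 7 AT1 genes was past the threshold. Ager stood at 1039 and 1182 CPM and Aqp5 at 375 and 355 CPM.

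Antigen presentation genes had no gene of 12 past the threshold but lay on one side, with 11 of 12 above 0 and a median of 0.24, beside 64.5% above 0 and a median of 0.08 over all features and 0.26 for the same list in the other gates. Cd74 stood at 2825 and 3503 CPM (0.31), the class I chain H2-K1 at 579 and 741 CPM (0.36), and B2m at 397 and 538 CPM (0.44; other gates 0.02). In the unfolded protein response list 2 of 15 genes were past it. Ddit3, the stress transcription factor CHOP, had 53 and 98 UMIs (0.90, 0.41 to 1.41; other gates -0.20) and remained past 1.5-fold in all 15 other settings. Those that only changed the UMI limit of a feature or the fold limit could not alter its ratio. Dnajb9, an endoplasmic reticulum cochaperone, had 155 and 250 UMIs (0.70, 0.41 to 1.00; other gates 0.00), with 0.48 at a mitochondrial limit of 5% and 0.57 in the Sftpc-poor range. The chaperone Hspa5, a leading target of the same response, stood at 225 and 213 CPM (-0.08).

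Among 16 immediate early and heat shock genes, 1 was past the threshold. The small chaperone Hspb1 was lower, with 823 and 327 UMIs (-1.31, -1.50 to -1.13), beside -0.92 in the other gates, which leaves -0.40. Hsp90aa1 gave -0.47 beside -0.32. Fos and Jun, which rise with cell handling, gave 0.10 and -0.09. Of 20 antioxidant and metal genes 3 were past it. Gclm, a subunit of glutathione synthesis, had 69 and 116 UMIs (0.76, 0.32 to 1.22; other gates 0.41), with 0.35 after subtraction of the other gates and 0.56 in the Sftpc-poor range, and its partner Gclc stood at 338 and 501 CPM (0.57, 0.48 to 0.66; other gates 0.64). The metallothioneins Mt1 (0.60) and Mt2 (0.61) were past it too, but the other gates gave 0.66 and 1.23, and subtraction turned both signs, to -0.054 and -0.63. Mt2 was at -0.039 with Lcn2 plus Il33 under 0.1%.

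The glycolysis list had 2 of 14 genes past the threshold, Pgk1 and Eno1. Eno1, with 69 and 109 UMIs (0.67, 0.23 to 1.13), has a near-identical copy and gave 0.16 after subtraction of the other gates and 0.30 at a mitochondrial limit of 5%. Ldha stood at 259 and 258 CPM and Gapdh at 201 and 194 CPM. Of 13 ion transport and junction genes, the sodium channel subunit Scnn1b was past it, with 40 and 76 UMIs (0.93, 0.37 to 1.53), and between 0.60 and 1.27 under the other settings. Its partner Scnn1a stood at 93.6 and 100.8 CPM (0.11). None of 4 cytokine, 4 interferon or 5 cell cycle genes with enough UMIs was past the threshold. Cxcl15 stood at 5889 and 5800 CPM and the interferon-induced Ifitm3 at 51.2 and 35.1 CPM (-0.54, -0.84 to -0.26; other gates 0.09). At least 3 UMIs of 9 mitosis genes were found in 2 of 815 control members (0.245%, 0.030 to 0.884%) and 5 of 892 fibrosis members (0.561%, 0.182 to 1.303%), 1 of 769 and 5 of 840 at 3000 UMIs per cell.

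The high side is described against the low side without a test, since the rule used that contrast. Past 1.5-fold, 8.25% of 4739 features in the control and 2.95% of 6416 in the fibrosis library were higher on the low side, and 3.1% and 1.32% lower. The control high side held only 92 cells with 657075 UMIs, beside 587 with 3852840 in fibrosis, so these shares are not compared between the libraries. The log2 ratio of high over low was -1.27 (control) and -1.22 (fibrosis) for the cardiac myosin gene Myh7, -1.3 and -0.87 for Hopx, -0.85 and -0.96 for the lipid-binding protein gene Sec14l3, -1.68 and -0.81 for Timp3, and -0.80 in each for Ccnd2. These genes marked the low side in both libraries. It was 2.05 and 1.58 for Lrg1, 1.49 and 2.10 for Retnla, 1.16 and 1.26 for the protease inhibitor Slpi, 1.46 and 0.93 for the mucosal chemokine Cxcl17, and 0.87 and 1.23 for the endotoxin co-receptor Cd14. Neutrophil genes were higher on the high side too, Retnlg by 2.01 and 1.62, S100a8 by 2.00 and 1.45 and S100a9 by 1.67 and 1.37, as was the myeloid gene Wfdc17 by 1.70 and 0.87. The neutrophil list summed to 3064 CPM on the high and 838 CPM on the low side of the control, and to 1037 and 384 CPM in fibrosis, and its part in the contrast was not tested. Sftpc gave 0.11 and 0.21, within 1.5-fold. On the low side Cd14 had 116 control and 212 fibrosis UMIs (0.88, 0.55 to 1.23; other gates 0.51).

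Spread between members was measured on cells thinned to 3000 UMIs, 769 control and 840 fibrosis cells, by the Fano factor, the variance over the mean, which is near 1 for pure counting. Over 2748 genes its median was 1.04 in both libraries. Sftpc, with its pair of ranges, had the highest values, 98.8 (control) and 148 (fibrosis). Among these genes, which averaged at least 0.1 UMI per thinned cell in both libraries, Lyz1, a lysozyme, came next at 54.6 and 53.3. Retnla, under that mean in the control, gave 4.32 and 73.7. Lyz1 was seen in 40.2% of control and 36.2% of fibrosis members, and 10% of the cells carried 89.3% and 89.1% of its UMIs. At 1500 UMIs per cell 28.4% and 26.8% of members had it, beside 3.68% and 4.29% of B cells. Its total level was 2043 and 1882 CPM, so that a minority of AT2 cells carried nearly all of it in both libraries. Lyz1 and Lyz2 are close paralogs whose reads can be hard to separate. Scd1 (11.6 and 15.9) and Apoe (6.16 and 12.9) also varied beyond counting. The neutrophil genes S100a8 (46.2 and 26.8) and S100a9 (47.8 and 28.2) stood lower in members (434 and 210 CPM for S100a8) than in B cells (4778 and 4268 CPM). At 1500 UMIs per cell the top 10% of B cells carried 92.8% and 96.9% of the S100a8 UMIs, so that sum rested on few cells.

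Summed markers of some other cell types differed between the libraries. The alveolar macrophage list was at 79.7 and 432 CPM in the members and 1003 and 2224 CPM in B cells, the neutrophil list at 838 and 384 CPM beside 8950 and 7550, and the club cell list at 4124 and 3114 CPM beside 7484 and 4031. Ptprc and Pecam1 are at 0 by the rule, the mesothelial Wt1 and the erythroid Alas2 were at 0 in both libraries, and the other leukocyte genes left 262 and 240 CPM beside 6435 and 5829 in B cells. Endothelial genes summed to 41.6 and 42.9 CPM and mesenchymal genes to 68.7 and 31.1 CPM. The B cell gate itself held 129 and 1163 CPM of the mesenchymal genes, beside 67.0 and 57.4 CPM in T cells. The alveolar macrophage list stood at 164 and 1089 CPM in T cells, under its level in B cells. The part of such RNA in the results was not tested.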

How the data were processed

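Lung cells of 1 mouse per library were profiled with 10x Genomics 3′ V2 chemistry. The authors deposited raw UMI counts per gene and cell. The submitters' processing notes name bcl2fastq, Cell Ranger 1.3 and mm10, and the steps and filters between are not given in the sources used here. Of 27998 gene identifiers, 27645 (98.7%) were found in GENCODE M21 on GRCm38.

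Members, gene lists and limits were chosen with earlier results of these data known. Cells above 10% mitochondrial UMIs (254 control, 228 fibrosis) were left out. Applied in order, the AT2 genes left 1207 and 2068 cells, Ptprc 999 and 1639, Pecam1 960 and 1560, the ciliated genes 927 and 1523, Scgb1a1 907 and 1479, and Lcn2 plus Il33 815 and 892. No doublet caller was run, and leaving out members with 3 or more UMIs of other lineages was an alternative. UMIs were summed per library. Exact Poisson, conditional binomial and Clopper-Pearson 95% intervals cover counting error only, and a count of 0 allows up to 3 counts. The ratio code was checked on simulated counts. Thinning drew UMIs without replacement (seeded). Other gates are defined on raw UMIs, without any UMI of the AT2 genes, and a gate gave a ratio with at least 20 UMIs of a gene.

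Named genes were the list genes, the 10 highest and lowest ratios before and after subtraction of the other gates, the 10 genes most different in each direction between low and high side, the 10 highest Fano factors and the 15 most abundant genes. Genes named for the Sftpc ranges, and Sprr1a, were chosen after seeing their values. Of the listed and marker symbols, 5 were not found among the gene names (Cebpd, Igkc, Ighm, Trac and Trbc2). Python 3.11.15, numpy 2.4.6, scipy 1.17.1, pandas 2.3.3 and matplotlib 3.10.9 were used. A result for 1 of the genes named by these rules is not reported here.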

Additional observations from a re-analysis of the deposited data

Results flagged for a closer look

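For 2 of 209 named or listed genes with at least 100 UMIs on each side, the library ratio pointed one way on the low side and the other way on the high side, with both counting intervals clear of 0. The difference between the sides was not tested, and each library is 1 mouse. S100a6, a calcium-binding protein, gave a log2 ratio of 0.44 (0.32 to 0.56) on the low side, with 1026 control and 1374 fibrosis UMIs, and -0.83 (-1.14 to -0.49) on the high side, with 103 and 342 UMIs. B cells held 670 and 783 CPM of it, more than the 209 and 283 CPM of the members, and 1 member held 15.1% of the fibrosis UMIs. Within the low side its ratio was 0.68 in the Sftpc-rich and 0.06 in the Sftpc-poor range. Gsr, glutathione reductase, gave 0.48 (0.16 to 0.80) on the low side, with 140 and 193 UMIs, and -0.65 (-1.19 to -0.05) on the high side, with 34 and 128 UMIs.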

How the results depend on the processing

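No paired analysis was possible because each group has 1 library. The comparison was repeated under 15 other settings, 12 of them planned and the 3 on Sftpc added after seeing the data. Of 655 values for 44 genes past 1.5-fold, 644 kept their sign and 590 stayed past it, among them every value of Slc26a4, Pon1, Dusp6, Ddit3, Scnn1b, Ccnd2 and Chil3. The settings of 30 UMIs and of 2-fold change which genes are counted but not a gene's ratio. Their values repeat the reported ones and could not differ, here and in the counts of settings above. The share of cells that met the rule in the control was 4.59% at a mitochondrial limit of 5%, 7.0% with Lcn2 plus Il33 under 0.1%, 12.3% with the same floor of total UMIs and 8.88% without cells carrying 3 UMIs of another lineage, and in the fibrosis library 7.21% at the mitochondrial limit, 6.64% under 0.1% and 11.6% without those cells. Higher genes numbered 149 at the 5% limit, 149 under 0.1%, 699 with features of at least 30 UMIs, 58 at 2-fold, 73 in the Sftpc-rich and 138 in the Sftpc-poor range. Lower genes numbered 128 with ratios centred on their median, 207 with the other gates subtracted, 327 at 30 UMIs and 24 at 2-fold. Subtracting the other gates turned the sign of AY036118 (-0.23), Gm10263 (0.17), Mt1 (-0.054), Mt2 (-0.63), Rnaset2a (0.62), Rnaset2b (0.23), Rps18-ps3 (0.38), Rps27rt (0.11) and Wdr89 (0.11). Fn1 turned to 0.079 without cells of another lineage and Mt2 to -0.039 under 0.1%. Apart from these constructions the cause was not tested. At this depth, genes under 100 summed UMIs were not compared.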
